A study of Mus musculus with 34 samples.

Results

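The sections described here are 8 of the 34 samples of the series, 4 from the primitive streak and 4 from the mesoderm of Evx1as-/- mouse embryos at embryonic day 7. Each mesoderm section was set against the streak section of the same layer, at layers 5, 7, 9 and 11, which gave 4 pairs. The rule that picked the sections uses only their labels, and it was set with earlier results of these data known. A section whose title and cell type label name different regions was left out. The pieces were cut by laser from frozen sections of C57/B6 embryos and their RNA was read by Geo-seq, an RNA sequencing protocol for small captured regions. Evx1as is a long non-coding RNA next to the homeobox gene Evx1, and -/- means that both alleles carry the mutation. The labels used here give the genotype and no further account of the allele. They tie no section to an embryo, so sections of the same genotype may come from 1 animal. Layer numbers mark the position of a section along the embryo, and the labels do not say at which end they start. The comparison group is 6 sections of Evx1as+/- embryos of the same strain and stage, streak and mesoderm at layers 7, 9 and 11. Expression is given in FPKM, sequenced fragments normalised for transcript length and for the number of fragments mapped in the section.

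The primitive streak is the posterior region where cells of the epiblast, an epithelium, lose their junctions and leave as mesoderm and endoderm. T (brachyury), Mixl1 and Eomes mark cells in the streak, and WNT, FGF and NODAL signals maintain it. Cells that have left lower Cdh1 (E-cadherin) and streak genes and turn on Gata4, Gata6, Pdgfra and Kdr as they migrate between epiblast and endoderm.

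The 8 sections held 9065 to 9911 genes at 1 FPKM or more, with summed FPKM of 242444 to 376860 in streak and 225842 to 252868 in mesoderm. The non-coding RNA Yam1 took 6.00% to 10.5% of the sum and mitochondrially encoded genes 2.03% to 2.94%. A single predicted gene, Gm15536, took 23.0% of the sum in the mesoderm section of layer 7 and was listed at 0 in the other 7 sections. The tables hold no read counts, so depth is unknown and no counting intervals are given.

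Evx1as itself, listed as 5730457N03Rik, was at 0 in 7 of the 8 homozygous sections and at 0.159 FPKM in the streak section of layer 9. In the 6 heterozygous sections it lay between 0 and 1.71 FPKM. The gene was too low to be tested. Evx1, a streak homeobox gene, was at 0, 1.55, 3.32 and 4.74 FPKM in streak layers 5, 7, 9 and 11 and at 0.567 to 1.86 in mesoderm, lowest at layer 5 and highest at layer 11 in both regions. The groups overlapped and the difference did not pass the test (limma, adjusted p = 0.486). Whether the counting of these sections used strand is not given in the sources used here, so reads of Evx1 and Evx1as may not have been told apart where they overlap.

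The region labels were checked against defining genes. T was between 50.8 and 105 FPKM in the 4 streak sections, between 5.18 and 9.14 in mesoderm and at 0.572 in the homozygous anterior epiblast section. Mesoderm sections held Mesp1, the regulator that marks nascent mesoderm, at 22.0, 29.2, 39.0 and 64.4 FPKM, but the streak sections held it at 33.5, 49.6, 67.9 and 71.0. Msgn1, which drives presomitic mesoderm, was listed at 0 in all 4 streak sections and at 0.573, 0, 0.352 and 0 in mesoderm. Tbx6, of the same lineage, stayed between 1.65 and 3.10 FPKM in mesoderm. In streak Tbx6 was at 1.16, 4.64, 0 and 0.591. The presomitic genes were thus low in both regions, while Mesp1 was high in both.

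The streak regulators T, Mixl1, Fst and Wnt8a, the pluripotency factor Pou5f1 and Cdh1 were lower in mesoderm, with Wnt8a and Cdh1 not called after scaling. The factor Gata6, the receptors Kdr and Cxcr4 and the secreted inhibitor Cer1 were higher, with Cer1 not called after scaling. Most members of the lists these genes belong to did not pass. Of 9419 genes that averaged 1 FPKM or more over the 8 sections, 7 were higher in mesoderm (0.0743%) and 54 lower (0.573%). The test was limma on log2(FPKM + 1) with layer as a block, two-sided, Benjamini-Hochberg adjusted over these genes at 0.05. In simulated sections with known changes planted, it recovered 9 of 100 differences of log2 1 and 67 of 100 of log2 2. A gene that did not pass may therefore still differ between regions. Because sections may share an embryo, every p-value over sections given here is too small if they do, and may measure technical spread. In such pieces fewer cells of a type and less RNA per cell cannot be told apart. At an unadjusted p under 0.05 there were 2115 genes (22.5%). The median log2 difference of all genes was -0.36, so genes on the whole read lower in mesoderm. After median-ratio scaling, which takes that shift out, the median was 0.02 and the split was 5 higher (0.0531%) and 8 lower (0.085%), all 13 shared with the 61. Those 13 were Fst, T, Mixl1, Apln, Sp8, Cxx1c, Pou5f1 and the predicted gene Gm8069 on the lower side, and Gata6, Kdr, Phlda2, Cxcr4 and Ifitm1 on the higher side. Without the pair of layer 5, 7, 9 or 11 the counts were 2 and 12, 3 and 19, 2 and 11, and 16 and 44. Of the 54 lower genes 22 were predicted genes or pseudogenes, whose reads may be shared with near-identical copies, and none of the 7 higher genes was.

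**Figure D1:**
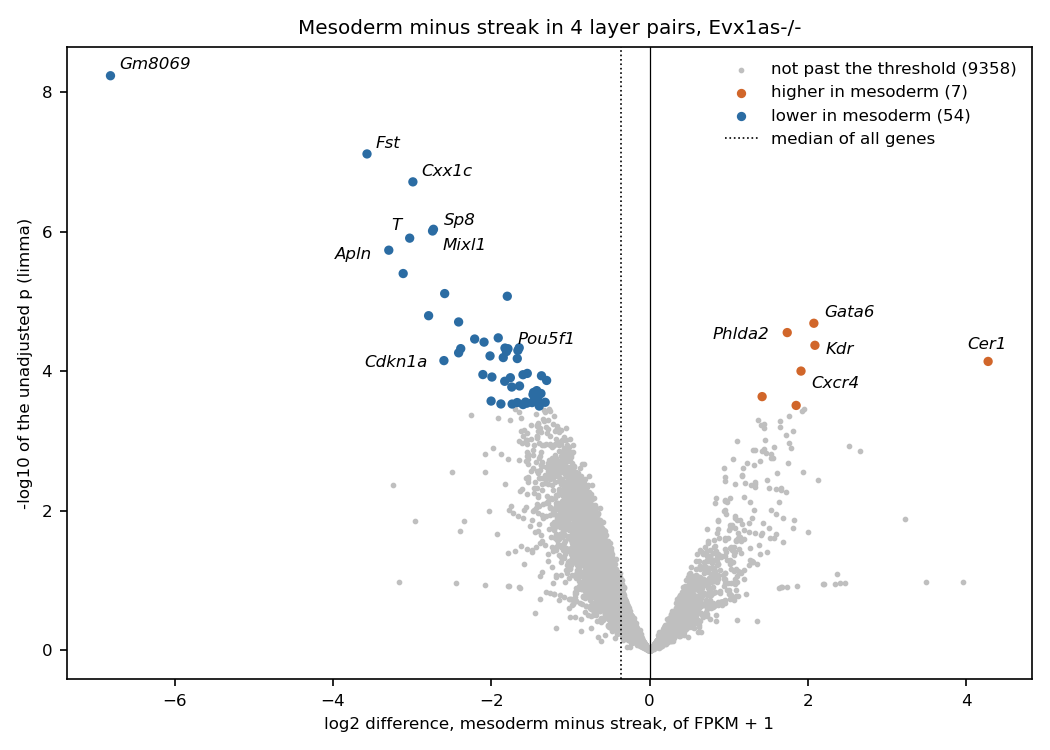
Log2 difference between mesoderm and streak (horizontal axis, of FPKM + 1) against the -log10 of the unadjusted limma p for 9419 genes in 4 layer pairs of Evx1as-/- sections. The 54 lower and 7 higher genes past the threshold are coloured, and most genes lie left of 0, with their median of -0.36 as a dotted line.

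In that plot the bulk of the genes is shifted to the left of 0, and the 7 higher genes stand on the right with Cer1 farthest out. A gene was lower in mesoderm in 4 of 4 pairs in 2778 cases (29.5%) and higher in 4 of 4 pairs in 200 (2.12%). Mesoderm lay below streak with no overlap in 1517 genes (16.1%) and above it in 67 (0.711%). In the values as deposited, a fall shared by 4 pairs was therefore common among all genes and a rise was not. These counts were not repeated after median-ratio scaling, where the median of all genes was 0.02. The sign-flip permutation test of a single gene over 4 pairs cannot go below an exact p of 0.125, the value it gave for T, Mixl1, Fst, Gata6, Kdr and Cer1.

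Promoter sequence is shown for T and Cer1, genes past the threshold in opposite directions, and for the epithelial gene Epcam. The window is the 250 bases before the gene's start in RefSeq (build GRCm38.p6). Capitals mark CACCTG and its reverse complement CAGGTG, an E-box that the repressor SNAI1 is known to bind. The T window lies at chr17:8434173-8434422 on the plus strand and holds 1 match, 15 bases before the start. The Epcam window lies at chr17:87635729-87635978 on the plus strand and holds 2, at 187 and 19 bases. The Cer1 window lies at chr4:82885152-82885401 on the minus strand and holds 2, at 72 and 61 bases.
T: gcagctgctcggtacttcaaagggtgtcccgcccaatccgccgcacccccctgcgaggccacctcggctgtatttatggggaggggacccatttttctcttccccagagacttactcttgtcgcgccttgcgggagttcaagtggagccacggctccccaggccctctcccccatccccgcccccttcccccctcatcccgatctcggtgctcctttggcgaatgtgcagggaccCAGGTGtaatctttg
Epcam: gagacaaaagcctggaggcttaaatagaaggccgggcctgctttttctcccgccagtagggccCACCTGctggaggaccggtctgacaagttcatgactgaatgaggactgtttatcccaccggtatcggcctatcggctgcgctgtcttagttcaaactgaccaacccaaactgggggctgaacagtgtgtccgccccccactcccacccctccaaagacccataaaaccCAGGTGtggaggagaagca
Cer1: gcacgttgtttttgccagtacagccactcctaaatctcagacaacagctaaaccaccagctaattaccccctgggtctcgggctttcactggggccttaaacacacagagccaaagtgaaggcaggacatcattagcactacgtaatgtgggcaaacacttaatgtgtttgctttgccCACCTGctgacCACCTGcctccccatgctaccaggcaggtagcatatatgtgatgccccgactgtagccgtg
Among all 32851 promoters of the table, 17.2% hold the motif on either strand, and by gene the share is 19.4% of all genes and 16.0% of the genes tested. It was found in 11 of the 15 epithelial junction genes tested that have an entry (73.3%), and in 7 of the 26 genes past the threshold that have one (26.9%). A match is a run of letters and not a shown binding site.

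A few streak regulators, genes that define the region cells leave, were lower in mesoderm. Of 22 genes on the list 20 were tested, and 4 were lower in mesoderm (T, Mixl1, Fst and Wnt8a), 0 higher and 16 did not pass. At an unadjusted p under 0.05, 15 were lower and 1 higher. The median log2 difference of the 20 was -1.21 against -0.36 for all genes, and -0.92 after scaling. In 12 of the 20 mesoderm was lower in 4 of 4 pairs (29.5% of all genes), and in 8 it lay below streak with no overlap (16.1% of all genes). This list and those below were chosen with earlier results of these data known. Their counts and medians describe the members and are no independent support. The shares of all genes to set beside each list are 0.0743% higher and 0.573% lower by limma. At an unadjusted p under 0.05 the share is 22.5%, which was not split by direction. Lhx1 and Foxa2 had log2 differences above 0, 1.46 and 0.80, and did not pass.

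T (chr17:8434423-8442496, mm10), the T-box factor that streak cells need to become mesoderm, was at 51.1, 63.0, 105 and 50.8 FPKM in streak layers 5, 7, 9 and 11. In mesoderm the values were 8.49, 9.14, 5.90 and 5.18. Layer 9 was the highest streak section, and no mesoderm section reached the lowest streak value. The means were 67.6 ± 25.8 and 7.18 ± 1.93 FPKM (SD, n = 4 sections each), a log2 difference of -3.03 ± 0.29 (SE; limma, adjusted p = 0.00193) and -2.58 after scaling. Mixl1 (chr1:180693043-180697034), a homeobox gene of mesendoderm, was at 233, 280, 170 and 139 FPKM in streak and at 22.7, 32.5, 32.8 and 28.4 in mesoderm. Every mesoderm section was far under every streak section, with a log2 difference of -2.74 ± 0.26 (SE; limma, adjusted p = 0.00183). Mixl1 was still at 22.7 FPKM or more in mesoderm, against 0.726 FPKM in the anterior epiblast section.

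Fst (chr13:114452262-114458730) encodes follistatin, a secreted inhibitor of activin and BMP ligands. It was at 68.7, 94.9, 83.1 and 58.5 FPKM in streak and at 5.79, 6.94, 3.78 and 5.50 in mesoderm. The 2 groups were narrow and far apart (log2 difference -3.57 ± 0.25, SE; limma, adjusted p = 0.000359). Fst was called under each of 14 alternatives, 10 other ways of filtering, scaling and fitting and 4 fits with 1 pair left out. Apln (chrX:48025146-48034853), the ligand of the apelin receptor, was at 27.2, 20.4, 15.7 and 5.03 FPKM in streak and at 0.771, 0.486, 1.01 and 0.234 in mesoderm. Its streak level was highest in layer 5 and lowest in layer 11, and mesoderm stayed near or under 1 FPKM throughout (log2 difference -3.30 ± 0.33, SE; limma, adjusted p = 0.00246). Aplnr, its receptor, was at 11.6, 9.05, 2.40 and 3.87 FPKM in streak and at 9.83, 12.4, 10.4 and 8.61 in mesoderm, overlapping, and did not pass (log2 difference 0.73, adjusted p = 0.224). The ligand was thus lower in mesoderm while the receptor was present in both regions.

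Eomes, Fgf8 and Cdx2 of the streak list did not pass. Eomes, a T-box factor of mesendoderm, was at 49.1, 56.6, 59.9 and 20.2 FPKM in streak and at 17.3, 26.9, 19.6 and 19.7 in mesoderm. Layer 11 streak was down at the mesoderm level, and the log2 difference was -1.02 (adjusted p = 0.11). Fgf8, a growth factor that drives cells out of the streak, was at 25.9, 23.7, 37.6 and 13.1 FPKM in streak and at 13.6, 13.0, 4.41 and 2.77 in mesoderm (log2 difference -1.61, adjusted p = 0.0737). It was lower in mesoderm in 4 of 4 pairs, with mesoderm layer 5 just above streak layer 11. Cdx2, a caudal homeobox gene, was at 0, 1.01, 8.54 and 8.49 FPKM in streak and at 0, 0.127, 0.337 and 0 in mesoderm, present mainly in streak layers 9 and 11.

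**Figure D2:**
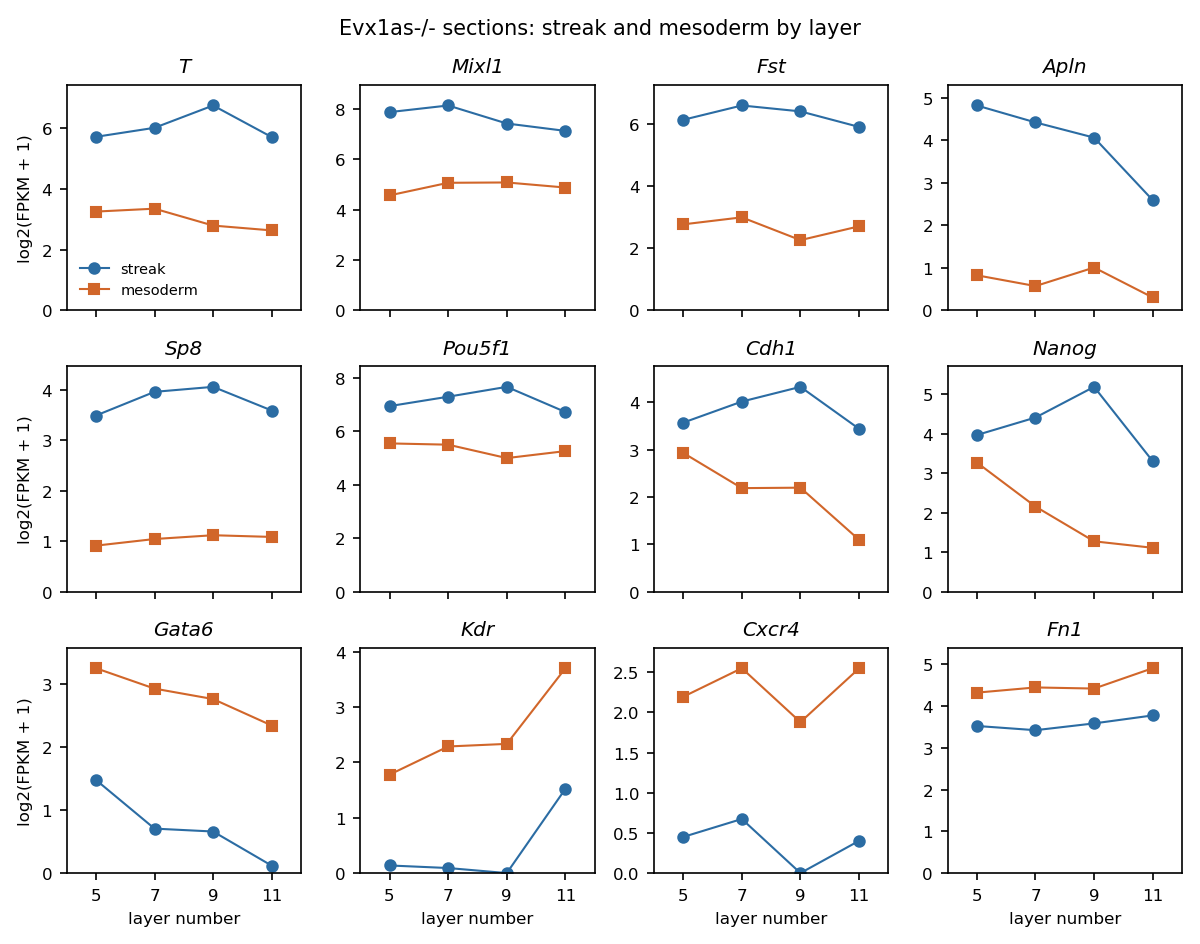
Log2(FPKM + 1) of 12 genes by layer number in the 4 streak (blue circles) and 4 mesoderm (orange squares) sections of Evx1as-/- embryos, 1 section per point, each panel on its own axis from 0. T, Mixl1, Fst, Apln, Sp8, Pou5f1, Cdh1 and Nanog lie lower in mesoderm at each layer, and Gata6, Kdr, Cxcr4 and Fn1 higher.

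The plot of 12 genes shows the 2 regions apart at each of the 4 layers. Cdh1 and Nanog come closest at layer 5 and are widest apart at layer 9 or 11, whereas Fst and Sp8 keep a similar gap along the layers.

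Of 25 WNT pathway genes and targets tested, 2 were lower (Sp8 and Wnt8a) and 0 higher by limma (10 lower and 1 higher at an unadjusted p under 0.05), with a median of -0.61. Lower in 4 of 4 pairs were 12 of the 25, against 29.5% of all genes. Wnt8a, a WNT ligand of the early streak, was at 5.48, 6.5, 2.55 and 4.50 FPKM in streak and at 0.124, 0.686, 0 and 0.0900 in mesoderm. The ligand was close to 0 in every mesoderm section (log2 difference -2.21 ± 0.31, SE; limma, adjusted p = 0.0202), a call that ended without layer 5, 7 or 9 (-2.10, -2.23 and -2.34) and after scaling. Sp8 (chr12:118846329-118852578), a zinc-finger factor downstream of WNT and FGF signals, was at 10.2, 14.5, 15.6 and 11.0 FPKM in streak and at 0.881, 1.06, 1.17 and 1.12 in mesoderm. Both groups were narrow and far apart, with a log2 difference of -2.73 ± 0.25 (SE; limma, adjusted p = 0.00183). Wnt3 and Wnt3a, ligands of the streak, lay below streak with no overlap (log2 differences -1.53 and -1.77) and did not pass (adjusted p = 0.0807 and 0.0601). Wnt3 was at 3.62, 4.76, 7.51 and 11.3 FPKM along the mesoderm sections, so that layer 11 was near the 12.7 of its streak partner. The target Sp5 and the receptor-removing ligase Znrf3 had log2 differences of -1.05 and -1.29, also without overlap and not past.

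Prickle1, a planar polarity gene outside the list, was at 11.4, 9.70, 11.6 and 5.10 FPKM in streak and at 2.23, 1.80, 0.648 and 1.06 in mesoderm. It was lower at every layer (log2 difference -2.09 ± 0.30, SE; limma, adjusted p = 0.0203), and the call ended without layer 5 or 9 (-2.14 and -1.81) and after scaling.

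Of 20 FGF pathway genes and targets tested, 3 were lower (Fgf17, Fgf15 and Spry2) and 0 higher by limma (9 lower and 1 higher at an unadjusted p under 0.05), with a median of -0.72. In 4 of 4 pairs 9 of the 20 were lower, against 29.5% of all genes. Fgf17, a ligand close to Fgf8, was at 3.72, 2.32, 6.18 and 5.64 FPKM in streak and listed at 0 in all 4 mesoderm sections (limma, adjusted p = 0.0203). Fgf15, another ligand, was at 23.6, 40.1, 19.3 and 9.74 FPKM in streak and at 7.5, 8.83, 5.20 and 4.05 in mesoderm (log2 difference -1.60 ± 0.26, SE; limma, adjusted p = 0.031). Spry2, a feedback inhibitor turned on by FGF signals, was at 34.5, 46.8, 50.5 and 20.2 FPKM against 7.60, 10.7, 10.5 and 11.2 (-1.76 ± 0.29, SE; limma, adjusted p = 0.0314). All 3 lay below streak with no overlap, as did 16.1% of all genes, and none passed after scaling. Fgf17 was also lost without layer 5 or 9, and Fgf15 and Spry2 without layer 5, 7 or 9, with log2 differences of -1.62, -1.44 and -1.56 for Fgf15 and of -1.66, -1.67 and -1.63 for Spry2. The feedback phosphatase Dusp6 lay at 25.4 to 39.2 FPKM in streak and 9.57 to 18.9 in mesoderm, below with no overlap, and did not pass (log2 difference -1.21, adjusted p = 0.0567). On the other side, the ligand Fgf10 was at 0 to 1.42 FPKM in streak and 2.40 to 4.18 in mesoderm (log2 difference 1.40, adjusted p = 0.0828).

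Epiblast and pluripotency genes had a median of -0.55 over 25 tested, with 3 lower (Pou5f1, Dnmt3b and Slc7a3), 0 higher and 22 not past by limma. At an unadjusted p under 0.05, 11 were lower and 0 higher. In 4 of 4 pairs 10 of the 25 were lower, against 29.5% of all genes. Pou5f1 (OCT4), the pluripotency factor still on in epiblast, was at 121, 155, 200 and 104 FPKM in streak and at 45.5, 44.0, 30.8 and 37.1 in mesoderm. No mesoderm section reached the lowest streak section, yet the lowest still held 30.8 FPKM. The means were 145 ± 42.4 and 39.3 ± 6.75 FPKM (SD, n = 4 sections each), a log2 difference of -1.83 ± 0.26 (SE; limma, adjusted p = 0.0203) and -1.36 after scaling. The call ended without layer 5, 7 or 9 (-1.97, -1.84 and -1.55). The de novo DNA methyltransferase Dnmt3b was at 75.6, 88.4, 109 and 42.7 FPKM in streak and at 40.7, 28.1, 19.5 and 16.9 in mesoderm (-1.55 ± 0.28, SE; limma, adjusted p = 0.0478). Slc7a3, an amino acid transporter of pluripotent cells, went from 2.14 to 6.67 FPKM in streak to 0.0569 to 1.69 in mesoderm (-1.99 ± 0.33, SE; limma, adjusted p = 0.0314). Neither was called after scaling. Leaving out any 1 pair ended the call of Dnmt3b (-1.78 to -1.26), and leaving out layer 5, 7 or 9 that of Slc7a3 (-2.15, -1.88 and -1.80). Nanog, a pluripotency factor that comes on again in the posterior epiblast, was at 14.6, 20.2, 35.3 and 8.86 FPKM in streak and at 8.63, 3.45, 1.42 and 1.16 in mesoderm. It fell short of the threshold (log2 difference -2.26 ± 0.43, SE; adjusted p = 0.0558). Sox2, a factor of anterior epiblast and neural cells, was at 1.31 FPKM or less in all 8 sections and not tested.

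The change from epithelium to mesenchyme was read from 2 lists. Cdh1, E-cadherin, was at 10.9, 15.2, 19.1 and 9.87 FPKM in streak and at 6.64, 3.56, 3.59 and 1.14 in mesoderm. It was lower at every layer, least at layer 5, and the groups did not overlap (log2 difference -1.74 ± 0.32, SE; limma, adjusted p = 0.0478). The call ended without layer 7, 9 or 11 (-1.71, -1.61 and -1.53) and after scaling (-1.33). Cdh1 was the only epithelial gene of 19 tested that passed, and the list's median of -0.34 was close to that of all genes. At an unadjusted p under 0.05, 5 were lower and 3 higher. Epcam, a surface protein of epithelia, was at 21.6, 24.8, 34.2 and 17.8 FPKM in streak and at 16.0, 9.24, 5.99 and 4.60 in mesoderm. It lay below with no overlap and did not pass (log2 difference -1.45, adjusted p = 0.0737).

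Other epithelial genes ran the opposite way. Krt8, a keratin of simple epithelia, was at 2.27, 2.86, 5.04 and 7.45 FPKM in streak and at 22.6, 10.4, 13.1 and 11.0 in mesoderm (log2 difference 1.54, adjusted p = 0.0821). Crb3, an apical polarity protein, was at 0.12 to 1.70 FPKM in streak and 2.77 to 8.13 in mesoderm (log2 difference 1.81, adjusted p = 0.0646). Both were higher in each mesoderm section than in any streak section, and both were highest in mesoderm layer 5, the section with the most Cer1 and Sox17 (given with the endoderm genes). Whether endoderm RNA in that section bears on these values was not tested.

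Among 18 mesenchymal genes tested 0 passed in either direction by limma (3 higher and 0 lower at an unadjusted p under 0.05), with a median of 0.20 (0.52 after scaling). Cdh2, N-cadherin, was at 3.64, 1.81, 1.02 and 3.70 FPKM in streak and at 9.01, 8.92, 5.88 and 5.87 in mesoderm. Fn1, the matrix protein fibronectin, was at 10.5, 9.72, 11.0 and 12.7 FPKM in streak and at 19.0, 20.8, 20.4 and 29 in mesoderm. Both were higher in every mesoderm section, with log2 differences of 1.31 and 0.94, and did not pass (adjusted p = 0.0787 and 0.0872). Snai1, the repressor that binds the E-box above, was at 16.8, 15.6, 11.7 and 8.73 FPKM in streak and at 5.14, 10.0, 14.9 and 12.9 in mesoderm. It was lower in mesoderm at layers 5 and 7 and higher at layers 9 and 11, so no direction held (log2 difference -0.32 as deposited and 0.12 after scaling). Vim, vimentin, stayed between 0.82 and 4.85 FPKM in all sections.

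Regulators of nascent mesoderm had a median of 0.58 over 17 tested. One was higher by limma (Gata6), 0 were lower (6 and 2 at an unadjusted p under 0.05), and 6 were higher in 4 of 4 pairs, against 2.12% of all genes. Gata6, a zinc-finger factor of heart mesoderm and endoderm, was at 1.78, 0.629, 0.578 and 0.0846 FPKM in streak and at 8.47, 6.57, 5.75 and 4.05 in mesoderm. It was highest at layer 5 and lowest at layer 11 in both regions, and no streak section reached the lowest mesoderm section. The means were 0.768 ± 0.718 and 6.21 ± 1.84 FPKM (SD, n = 4 sections each), a log2 difference of 2.08 ± 0.27 (SE; limma, adjusted p = 0.0148). The call ended without layer 5, 7 or 9 (2.18, 2.03 and 2.07). Gata4, its relative in the same tissues, was at 0.211, 3.00, 1.57 and 6.70 FPKM in streak and at 7.33, 8.38, 10.3 and 13.3 in mesoderm. In mesoderm Gata4 was lowest at layer 5 and highest at layer 11, opposite to Gata6, and it did not pass (log2 difference 1.76 ± 0.34, SE; adjusted p = 0.0569). Mesp1 was lower in mesoderm than in streak in 4 of 4 pairs (log2 difference -0.56, adjusted p = 0.197; -0.10 after scaling). Lefty2, a NODAL inhibitor of streak mesoderm, was higher in 4 of 4 pairs, at 26.3, 69.7, 3.63 and 11.7 FPKM in streak and 79.4, 113, 53.7 and 18.1 in mesoderm (log2 difference 1.60, adjusted p = 0.104).

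Of 24 receptors and ligands of migrating mesoderm tested, 3 receptors were higher (Kdr, Cxcr4 and Nrp1) and the ligand Apln was lower (6 and 6 at an unadjusted p under 0.05). In 4 of 4 pairs 7 were higher and 6 lower, against 2.12% and 29.5% of all genes. Kdr (chr5:75932827-75978458), the VEGF receptor of blood and vessel precursors, was at 0.100, 0.0653, 0 and 1.87 FPKM in streak and at 2.43, 3.88, 4.04 and 12.0 in mesoderm. Layer 11 held the highest value in both regions, and the lowest mesoderm value, 2.43, was above the highest streak value, 1.87 (log2 difference 2.09 ± 0.30, SE; limma, adjusted p = 0.0203). Cxcr4 (chr1:128588199-128592290), a chemokine receptor of endoderm and mesoderm, was at 0.366, 0.595, 0 and 0.321 FPKM in streak and at 3.58, 4.86, 2.68 and 4.85 in mesoderm. It was under 1 FPKM in each streak section and over 2 in each mesoderm section (1.91 ± 0.30, SE; limma, adjusted p = 0.0301). Nrp1, a co-receptor for VEGF and semaphorins, was at 0.0605, 0.147, 0.0376 and 0.374 FPKM in streak and at 2.74, 2.60, 2.06 and 6.15 in mesoderm (1.85 ± 0.34, SE; limma, adjusted p = 0.0484). Nrp1 was not called after scaling. Leaving out any 1 pair ended each of the 3 calls, with log2 differences of 2.01 to 2.24 for Kdr, 1.84 to 1.97 for Cxcr4 and 1.68 to 1.95 for Nrp1. The guidance receptor Robo1 went from 0.102 to 0.67 FPKM in streak to 2.78 to 3.67 in mesoderm, with no overlap, and did not pass (log2 difference 1.65, adjusted p = 0.0605). Pdgfra, the PDGF receptor of mesoderm, overlapped between regions at 1.41 to 5.05 and 2.45 to 4.18 FPKM.

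Of 14 NODAL pathway genes tested, 1 was higher, the secreted inhibitor Cer1, and 0 were lower by limma (3 and 2 at an unadjusted p under 0.05). Nodal was at 5.00, 5.52, 5.05 and 2.09 FPKM in streak and at 5.14, 0.278, 0.306 and 0 in mesoderm. Its level in mesoderm layer 5 matched the streak, and it was near 0 in the other mesoderm sections (log2 difference -1.54, adjusted p = 0.0985). Tdgf1, the NODAL co-receptor Cripto, was high in both regions, at 105 to 246 FPKM in streak and 90.4 to 130 in mesoderm. Its relative Cfc1 (Cryptic) was at 0.432, 1.76, 1.33 and 7.26 FPKM in streak and at 15.9, 6.17, 8.68 and 6.74 in mesoderm, higher in 3 of 4 pairs (log2 difference 1.73, adjusted p = 0.107). Among 17 BMP pathway genes tested Fst was the single call, with a median of 0.33 (6 higher and 1 lower at an unadjusted p under 0.05). Bmp7, a ligand, was at 0 to 0.56 FPKM in streak and 1.32 to 2.23 in mesoderm, without overlap and not past (log2 difference 1.27, adjusted p = 0.114). Of 9 NOTCH and presomitic genes 0 passed by limma in either direction (2 higher and 0 lower at an unadjusted p under 0.05). The ligand Dll3 was higher in each mesoderm section, 2.40 to 3.79 FPKM against 0.674 to 1.34, and did not pass (log2 difference 1.02, adjusted p = 0.112).

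Genes of the node and definitive endoderm, the sheet that forms from the anterior streak, had a median of 0.80 over 13 tested. Cer1, Cxcr4 and Gata6 were higher and 0 lower by limma (6 and 0 at an unadjusted p under 0.05). In 4 of 4 pairs 5 of the 13 were higher, against 2.12% of all genes. Cer1 (chr4:82881751-82885148), the secreted NODAL and BMP inhibitor Cerberus, was at 131, 38.9, 6.13 and 3.71 FPKM in mesoderm layers 5, 7, 9 and 11 and at 0.153, 0, 0 and 0.0837 in streak. It was lower at each successive mesoderm layer and near 0 in each paired streak section (log2 difference 4.28 ± 0.65, SE; limma, adjusted p = 0.0226). The call ended without layer 5 or 9 (3.42 and 4.76) and after scaling. The unpaired homozygous streak section of layer 1 held 39.6 FPKM of Cer1, and the unpaired mesoderm section of layer 3 held 57.3, so Cer1 was not absent from every streak section of this genotype.

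Some other endoderm genes were also higher at mesoderm layers 5 and 7 than at layers 9 and 11. Cxcr4 and Car4 of the same list did not follow this course, Car4 being at 151, 52.7, 93.1 and 60.4 FPKM in mesoderm. Sox17, the endoderm factor, was at 9.89, 5.06, 1.35 and 0 FPKM in mesoderm and at 0 to 0.433 in streak. Hhex, a factor of anterior endoderm, was at 12.7, 5.09, 0.285 and 1.02 in mesoderm and at 0.0961, 0.0781, 0 and 1.16 in streak. Lhx1, a factor of node, endoderm and mesoderm, was at 55.9, 50, 28.3 and 9.20 in mesoderm and at 13.6, 11.4, 9.36 and 7.05 in streak. All 3 were highest in mesoderm layer 5 and none passed (log2 differences 1.52, 1.60 and 1.46, adjusted p = 0.171, 0.162 and 0.0728). Otx2, a factor of anterior epiblast and endoderm, was lower at each successive layer in both regions, 31.2 to 4.58 FPKM in mesoderm and 18.5 to 4.04 in streak. Foxa2, of node and endoderm, was high at layer 5 in both regions (9.33 in streak and 8.37 in mesoderm) and under 0.21 FPKM at layer 11 in both.

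**Figure D3:**
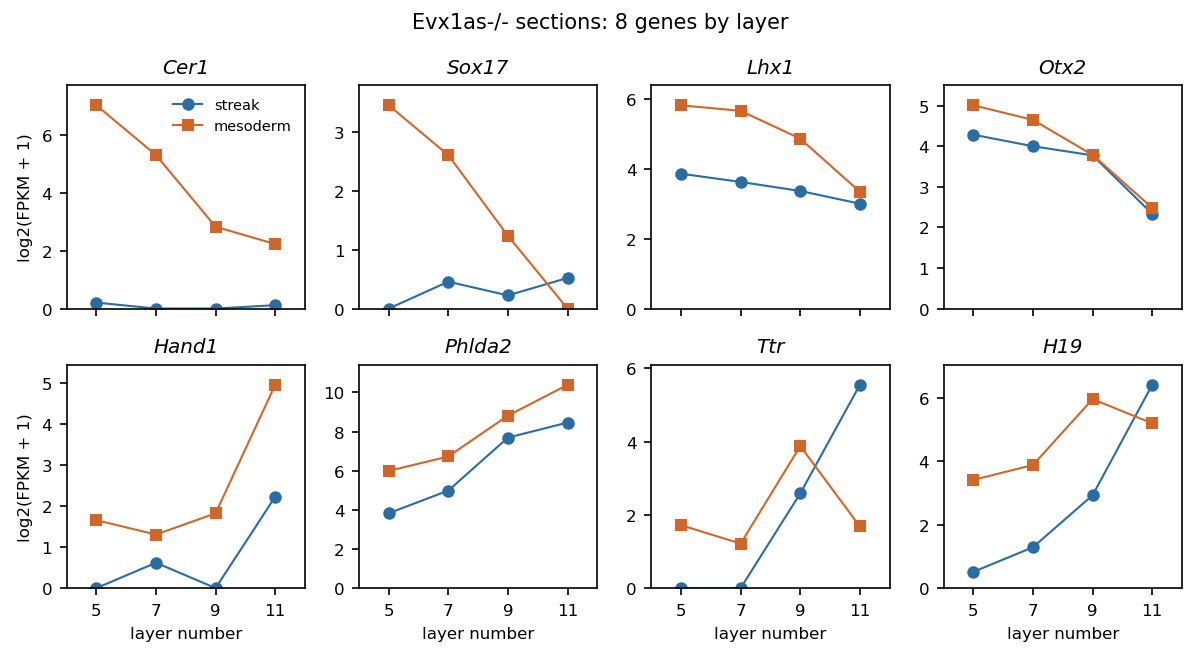
Log2(FPKM + 1) of 8 genes by layer number in the 4 streak (blue circles) and 4 mesoderm (orange squares) sections of Evx1as-/- embryos, 1 section per point, each panel on its own axis from 0. Cer1, Sox17 and Lhx1 are lower at each successive mesoderm layer, Hand1 and Phlda2 are highest at layer 11, and Ttr and H19 peak in streak layer 11 and mesoderm layer 9.

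The plot of 8 genes sets Cer1, Sox17, Lhx1 and Otx2, highest at layer 5 in mesoderm, against Hand1 and Phlda2, highest at layer 11. With 1 section per region and layer there is no replicate of a layer, so these courses have no test.

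Visceral endoderm, the outer layer of the embryo, could be cut along with mesoderm. Its marker Ttr was at 0, 0, 5.00 and 45.8 FPKM in streak and at 2.29, 1.32, 13.7 and 2.21 in mesoderm. Afp, another marker, was at 0, 0, 0 and 6.67 in streak and at 0.615, 0.0707, 5.16 and 0.0744 in mesoderm. Streak layer 11 and mesoderm layer 9 thus held the most of both. Of 23 visceral endoderm genes tested 0 passed by limma (2 higher and 0 lower at an unadjusted p under 0.05), and their median was 0.14. Their summed level was 261 to 2312 FPKM in streak and 348 to 1479 in mesoderm, with those same 2 sections at the top. In mesoderm layer 5, where Cer1, Sox17 and Hhex were highest, the sum was 599 against 261 in its streak partner. The part of visceral endoderm in the endoderm gene values was not tested.

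Genes of heart and extraembryonic mesoderm had the highest median of the lists with at least 4 genes tested, 1.22 over 8 tested, with 1 higher and 0 lower by limma (6 and 0 at an unadjusted p under 0.05). In 4 of 4 pairs 5 of the 8 were higher, against 2.12% of all genes. Phlda2 (chr7:143501545-143502541), an imprinted gene active in extraembryonic tissue, was at 13.2, 30.7, 206 and 352 FPKM in streak and at 62.7, 105, 450 and 1341 in mesoderm. Its level was higher at each successive layer in both regions, so the groups overlapped although mesoderm was above streak in each pair (log2 difference 1.74 ± 0.24, SE; limma, adjusted p = 0.0187, and 2.21 after scaling). The call ended without layer 5 or 7 (1.60 and 1.74). Hand1, a factor of extraembryonic and heart mesoderm, was at 0, 0.535, 0 and 3.68 FPKM in streak and at 2.15, 1.47, 2.54 and 29.99 in mesoderm. Layer 11 stood far above the others in both regions (log2 difference 1.72, adjusted p = 0.07). H19, an imprinted non-coding RNA, was at 0.426, 1.44, 6.60 and 83.5 FPKM in streak and at 9.61, 13.7, 60.9 and 35.5 in mesoderm, with its maxima in the 2 sections that held the most Ttr.

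Ifitm1, a membrane protein of mesoderm and early germ cells, was at 16.8, 25.7, 44.0 and 48.0 FPKM in streak and at 75.2, 60.6, 89.1 and 127 in mesoderm. Every mesoderm section was above every streak section (log2 difference 1.42 ± 0.25, SE; limma, adjusted p = 0.0449, and 1.89 after scaling). Leaving out any 1 pair ended the call (1.20 to 1.56). It was the 1 higher gene of 5 germ cell genes tested, and 0 were lower by limma (1 and 1 at an unadjusted p under 0.05).

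Of 31 cell cycle genes tested, Cdkn1a was lower and 0 were higher by limma (11 and 0 at an unadjusted p under 0.05), with a median of -0.52 that became -0.08 after scaling. In 4 of 4 pairs 14 of the 31 were lower, against 29.5% of all genes. Cdkn1a (p21), an inhibitor of cell cycle kinases, was at 5.24, 3.72, 12.3 and 11.7 FPKM in streak and at 0.783, 0.566, 0 and 0.325 in mesoderm. It was highest in streak layers 9 and 11 and under 1 FPKM in all mesoderm sections (log2 difference -2.60 ± 0.40, SE; limma, adjusted p = 0.0226). The call ended without layer 5 or 9 (-2.86 and -2.22) and after scaling. Among 21 glycolysis and hypoxia genes 0 passed by limma (10 lower and 0 higher at an unadjusted p under 0.05), with a median of -0.51. In 4 of 4 pairs 9 of the 21 were lower, beside the same 29.5% of all genes. Ldha, lactate dehydrogenase, lay at 375 to 626 FPKM in streak and 292 to 373 in mesoderm, a log2 difference of -0.51 that was -0.04 after scaling. The 9 stress genes and 15 mitochondrially encoded genes tested had medians of -0.54 and -0.35 with 0 calls by limma (3 and 1 lower and 0 higher at an unadjusted p under 0.05), and the mitochondrial median was 0.12 after scaling. Of 12 extracellular matrix, 6 trophoblast and 4 blood and endothelial genes tested, 0 passed by limma, with 1, 1 and 0 higher and 2, 1 and 0 lower at an unadjusted p under 0.05. The HOX list had 1 gene tested, Hoxb1, which did not pass, and 11 of its 22 genes were at 0 in all 8 sections.

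**Figure D4:**
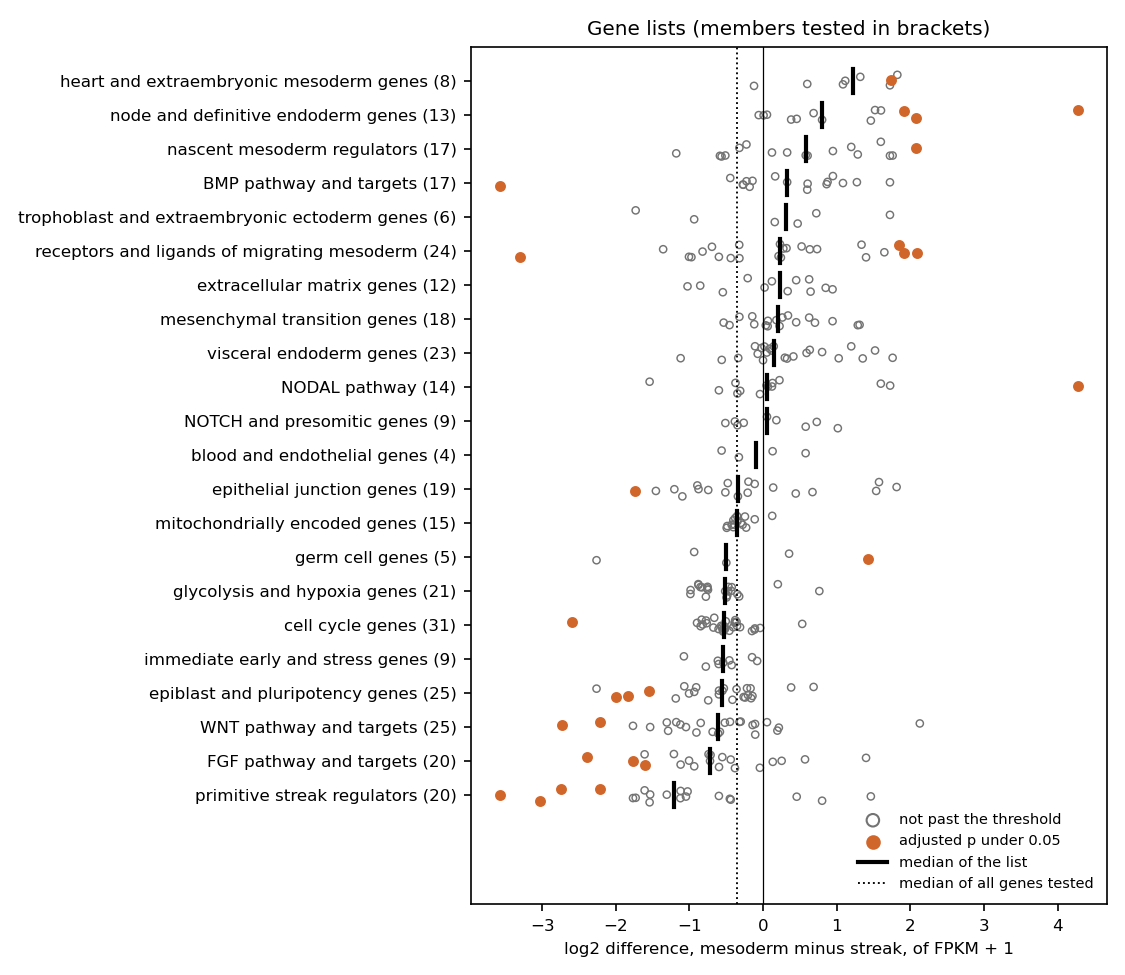
Log2 difference between mesoderm and streak (of FPKM + 1) for the tested members of 22 gene lists, 1 point per gene, with filled points past the threshold and a bar at each list's median. Streak regulators have the lowest median at -1.21 and heart and extraembryonic mesoderm genes the highest at 1.22, and the dotted line is the median of all genes at -0.36.

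The plot of lists sets the groups in order of their medians, with streak, FGF, WNT and epiblast genes at the bottom. Lists share members, such as Cer1, Gata6, Cdx2 and Fst, so a filled point can appear on several lines.

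Other genes past the threshold belong to no such group. Cxx1c (chrX:53608032-53608432) was at 53.9, 62.0, 71.1 and 30.3 FPKM in streak and at 5.66, 8.21, 8.46 and 2.36 in mesoderm. The regions were well separated (log2 difference -2.99 ± 0.23, SE; limma, adjusted p = 0.000603), and the call was kept under each of the same 14 alternatives. Cxx1b, a similar gene named after its values were seen, was also lower, and reads of the 2 may be shared. Pim2, a serine kinase that promotes survival and growth, was at 55.1, 61.7, 114 and 29.4 FPKM in streak and at 12.6, 13.2, 5.18 and 3.47 in mesoderm (-2.79 ± 0.36, SE; limma, adjusted p = 0.0136), a call that ended after scaling. Mgst1, a glutathione transferase of membranes, went from 3.20 to 10.7 FPKM in streak to 0.342 to 2.60 in mesoderm (-2.11 ± 0.34, SE; limma, adjusted p = 0.031). That call ended without layer 5, 9 or 11 (-2.24, -2.02 and -1.77) and after scaling.

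Whether these differences depend on the genotype was tested with the 3 heterozygous pairs in the same fit, over 9146 genes and 14 sections. One gene passed the test of genotype by region, 0.0109% of those tested, and 562 (6.14%) had an unadjusted p under 0.05. That gene, the predicted gene Gm8069 on chromosome 5, was at 98.2, 85.1, 309 and 59.2 FPKM in the homozygous streak sections and listed at 0 in the homozygous mesoderm and all 6 heterozygous sections (limma, adjusted p = 0.00118). It was at 55.7 FPKM in the homozygous anterior epiblast and at 0 in the unpaired streak section of layer 1. No other gene passed. In simulated sections with known changes planted, this test recovered 0 of 100 differences of log2 1 and 2 of 100 of log2 2. A gene that did not pass may therefore still differ between genotypes. Smim4 passed as well without the heterozygous pair of layer 9, and the predicted gene Gm4246 without the homozygous pair of layer 5. In this fit 4 genes were higher (0.0437%) and 16 lower (0.175%) in homozygous mesoderm, and 20 higher (0.219%) and 261 lower (2.85%) in heterozygous mesoderm. The heterozygous sections held 6806 to 9288 genes at 1 FPKM or more, and Yam1 took 1.07% to 33.1% of their sum. The p-values are too small here too if sections share an embryo.

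T, Mixl1 and Fst were lower in mesoderm in both genotypes. T had a log2 difference of -3.03 in homozygous and -4.22 in heterozygous pairs, where it was at 297, 240 and 133 FPKM in streak and at 6.17, 22.2 and 7.93 in mesoderm. The difference of the 2 was 1.19 ± 0.55 (SE; limma, unadjusted p = 0.0527, adjusted p = 0.808). Fst was alike at -3.57 and -3.96, with a difference of 0.38 ± 0.58 (SE). Mixl1 was at -2.74 and -4.34, and at -2.55 in homozygous pairs without layer 5. At layers 7, 9 and 11 heterozygous mesoderm held 1.27, 10.2 and 5.65 FPKM, against 32.5, 32.8 and 28.4 in homozygous mesoderm. For Mixl1 the difference of 1.59 ± 0.41 (SE) had an unadjusted p of 0.00252 by limma and an adjusted p of 0.631. Cdh1 was at -1.74 and -3.55 (difference 1.81 ± 0.52, SE; limma, adjusted p = 0.648), and at -2.10 in homozygous pairs without layer 5. At layers 7, 9 and 11 it was at 0.982, 0.336 and 0.219 FPKM in heterozygous mesoderm and at 3.56, 3.59 and 1.14 in homozygous mesoderm. The median of the 20 streak regulators was -1.21 in homozygous and -1.85 in heterozygous pairs, with layer 5 in the homozygous median only. Some called genes fell less in heterozygous pairs. Fgf17 was at -2.39 and 0.01, Pim2 at -2.79 and -0.77 and Slc7a3 at -1.99 and -0.34. These did not pass the genotype test either (limma, adjusted p = 0.648, 0.648 and 0.693). Fgf17 was at 0, 0.927 and 0 FPKM in heterozygous streak. Pou5f1 was alike at -1.83 and -1.70.

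Genes higher in homozygous mesoderm were set against the heterozygous pairs in the same way. Gata6 had log2 differences of 2.08 and 1.59 and Phlda2 of 1.74 and 1.19. Cer1 was at 4.28 and 0.94, with 4.94, 1.11 and 0.151 FPKM in heterozygous mesoderm at layers 7, 9 and 11, where the homozygous sections held 38.9, 6.13 and 3.71. Without layer 5, which has no heterozygous pair, the homozygous log2 difference of Cer1 was 3.42. Lefty2 ran in opposite directions, 1.60 and -0.93, with homozygous values above the streak at each layer and heterozygous ones below it. The differences for Cer1 (3.34 ± 1.07, SE) and Lefty2 (2.53 ± 0.67, SE) did not pass (limma, adjusted p = 0.691 and 0.648). The smallest p-values after Gm8069 among genes other than predicted ones were those of Gabarapl1, Smim4, Pomc, Ceacam10 and Cxx1c, with adjusted p between 0.314 and 0.37. Cxx1c was at -2.99 and -5.24.

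**Figure D5:**
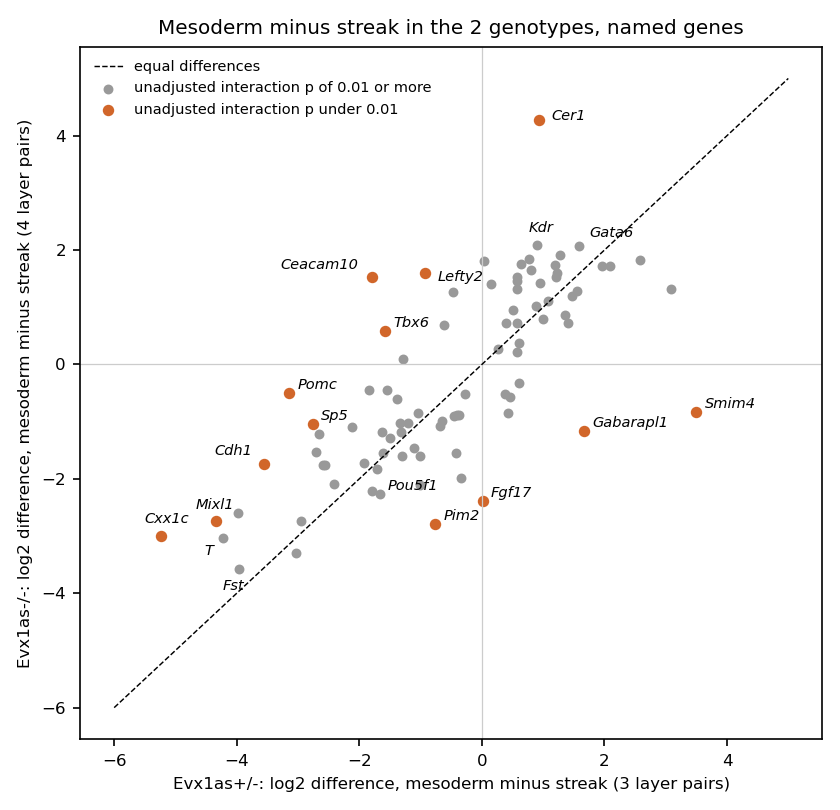
Log2 difference between mesoderm and streak (of FPKM + 1) in 3 pairs of Evx1as+/- sections (horizontal axis) and in 4 pairs of Evx1as-/- sections (vertical axis) for 89 named genes other than Gm8069, with a dashed line where the 2 are equal. The 13 orange genes have an unadjusted interaction p under 0.01 and none of the 89 passed after adjustment, with T and Fst at the lower left and Gata6 and Kdr at the upper right.

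In the plot of both genotypes most named genes lie in the lower left or upper right, with the same sign in both. The share of all genes with the same sign was not counted. The median of all genes was below 0 in both genotypes, -0.36 in homozygous and -0.32 in heterozygous pairs. Cer1 stands far above the line of equal differences, and Smim4 and Gabarapl1 far below it.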

How the data were processed

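RNA of laser-captured embryo sections was sequenced by Geo-seq, per the labels' protocols. The authors deposited 1 table of FPKM per section. CASAVA, TopHat2 2.0.11 and the genome mm10 are named in the submitters' processing notes, and the tool that made the FPKM values is not given in the sources used here. Groups and layers came from the labels. Values were tested as log2(FPKM + 1) with limma 3.58.1 (R 4.3.3), trend prior and layer as a block, over genes averaging 1 FPKM or more in the sections fitted. The log scale understates changes of low genes. Genotypes were compared by an interaction term over 14 sections. Median-ratio scaling, other pseudocounts and filters, other models and leaving out each pair were tried. The code was tested on simulated data. Figures were drawn with Python 3.11.15. Named genes are core genes of the streak and mesoderm, list members by p or level, and the largest changes past the threshold. Of these changes up to 10 each way were taken, with 5 FPKM or more as mean of the higher group. The members and the lists were chosen with earlier results of these data known. Lists are described by counts and medians. Cultures, posterior pieces and sections with conflicting labels were left out.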

Additional observations from a re-analysis of the deposited data

Results flagged for a closer look

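Over 66 groups of 4 sections for core genes, and the section totals, 1 section stood apart from the other 3 in 14 cases. The gap was past the critical share of the whole range in the Dixon test. Chance gives this in about 1 in 20 groups of normal values. That rate does not hold for groups with values mostly at or near 0, such as Afp in streak. Streak layer 11 stood apart in 6 genes, low in Wnt3 (12.7 FPKM) and Nodal (2.09 FPKM) and high in Hand1 (3.68 FPKM), Kdr (1.87 FPKM), Ttr (45.8 FPKM) and Afp (6.67 FPKM). Mesoderm layer 11 stood apart in Hand1 (29.99 FPKM) and Kdr (12.0 FPKM). Mesoderm layer 9 was high in Ttr (13.7 FPKM) and Afp (5.16 FPKM). At layer 5, Nodal was high in mesoderm (5.14 FPKM) and Foxa2 in streak (9.33 FPKM). Evx1as was listed above 0 in streak layer 9 alone (5730457N03Rik, 0.159 FPKM). Mesoderm layer 7 had the highest sum of its group, 252868 FPKM, with Gm15536 in it. Gm8069 is listed because its mesoderm difference depended on the genotype by the interaction test, with a log2 value of -6.81 for homozygous minus heterozygous that rests on sections listed at 0 and is no measure of size.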

How the results depend on the processing

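Counts of genes higher and lower in homozygous mesoderm, 7 and 54, moved with most choices. They were 2 and 22 with a pseudocount of 5, 0 and 3 with no filter on low values (28650 genes tested), 18 and 307 with a mean of at least 5 FPKM, 4 and 18 with a constant prior, and 36 and 273 with layer as a number. Scaling left 8 lower after median ratios and 14 lower after a common total without Yam1 and mitochondrial genes. A common total without Gm15536 and Yam1, chosen after seeing the data, left 13 lower. With the spread pooled over both genotypes and a replicate block by genotype and layer they were 4 and 16. With no replicate block they were 28 and 284, 57 of the 312 shared with the 61. Deviations of same-layer sections correlated by 0.03, 0.07, -0.01 and 0.01 at layers 5, 7, 9 and 11. The highest value, 0.11, was that of streak layer 11 with mesoderm layer 9, so sections of the same layer did not stand out. What the sections of a layer share was not tested. Leaving out 1 pair gave 2 to 16 higher and 11 to 44 lower. The count of genes that depended on genotype, 1, was 2 after median-ratio scaling, with a mean of at least 5 FPKM and with layers 7, 9 and 11 only, and 1 to 2 with 1 pair left out, the second being Gm10698, Gm4246 or Smim4. Of 25 named genes past the threshold, Gm8069 aside, 7 stayed past it without each pair (T, Mixl1, Fst, Apln, Cxx1c, Pim2 and Sp8), and 0 reversed. T, Mixl1, Apln and Sp8 were lost only with no filter. Phlda2 was lost without layer 5 or 7, with no filter, with a constant prior and with no replicate block. Direction turned for 3 genes that had not passed. Snai1 was at 0.12 after median-ratio scaling, at 0.0486 with the common total without Gm15536 and Yam1, at 0.0825 without layer 5, and from -0.60 to 0.0825 with 1 pair left out. Ttr was at -0.26 with a pseudocount of 5 and from -0.45 to 1.41 with 1 pair left out, and Afp from -0.68 to 0.16. The cause of these shifts was not tested, save that fewer sections or more genes enter some fits. Depth is unknown, which limits what can be said of genes under about 1 FPKM.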

Other observations

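The X chromosome held 9 of the 61 genes past the threshold and 447 of the 9419 tested. All 9 were lower in mesoderm (Apln, Cxx1b, Cxx1c, Pim2, Slc7a3, Tceal8, Itm2a, Siah1b and the predicted gene Gm6382). Tceal8 had a mean of 347 FPKM in streak and 98.7 in mesoderm, Itm2a of 6.59 and 1.14, and Siah1b of 20.0 and 7.51. The median log2 difference of the tested X-linked genes was -0.42. These 9 genes were singled out after their values were seen, and the X chromosome was not compared with the others by a test.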
